A study of Mus musculus with 6 samples.

Results

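The 8 genes of retinoid synthesis, transport and degradation examined here were measured by RNA sequencing in male fetal mouse gonads at E13.5, counted in days of embryonic development. They were chosen by gene symbol and are Rbp4, Stra6, Rdh10, Dhrs3, Aldh1a1, Aldh1a2, Aldh1a3 and Cyp26b1, 8 of the 16862 genes listed. All 8 passed the filter on low values. The study compared 3 wild-type libraries, numbered 1, 3 and 4 in the labels, with 3 libraries (5, 7 and 8) from embryos labelled L/H-Pgds ko, which lack the prostaglandin D synthases L-Pgds and H-Pgds. All embryos were of the C57BL/6 strain, and the gonads are described as taken from 6 different littermates, so each library was counted as 1 embryo. The labels give no litter, batch or pairing, and they do not say which part of either gene was deleted.

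Retinol reaches tissues bound to the plasma carrier RBP4 and enters cells through the receptor STRA6. Inside the cell RDH10 oxidises retinol to retinaldehyde, DHRS3 reduces it back, and the ALDH1A enzymes turn retinaldehyde into retinoic acid, the ligand of the nuclear receptors RAR and RXR. CYP26B1 degrades retinoic acid. In the fetal testis, Sertoli cells and interstitial cells express CYP26B1, and its activity is thought to keep retinoic acid away from germ cells. Germ cells of the fetal ovary are thought to respond to retinoic acid by entering meiosis.

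For Cyp26b1, the member that rose, Aldh1a2 and Stra6, members that fell, and Aldh1a1, the member with the highest level, the upstream stretches are shown. They are RefSeq sequences of GRCm38.p6, written 5′ to 3′ on the gene's own strand and ended before the first annotated exon. Capitals mark the GC box GGGCGG or the retinoic acid receptor core motifs AGGTCA and GGGTCA on either strand.
Cyp26b1, chr6:84593909-84594060, minus strand: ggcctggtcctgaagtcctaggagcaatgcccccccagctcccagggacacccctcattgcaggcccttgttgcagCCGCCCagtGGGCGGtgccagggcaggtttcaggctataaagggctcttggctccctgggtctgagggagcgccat
Aldh1a2, chr9:71215539-71215788, plus strand: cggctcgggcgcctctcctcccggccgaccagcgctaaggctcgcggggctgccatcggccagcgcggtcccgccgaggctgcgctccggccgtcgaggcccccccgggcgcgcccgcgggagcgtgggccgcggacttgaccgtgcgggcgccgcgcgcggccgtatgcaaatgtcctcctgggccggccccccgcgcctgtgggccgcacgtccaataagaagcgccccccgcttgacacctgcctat
Stra6, chr9:58128838-58129087, plus strand: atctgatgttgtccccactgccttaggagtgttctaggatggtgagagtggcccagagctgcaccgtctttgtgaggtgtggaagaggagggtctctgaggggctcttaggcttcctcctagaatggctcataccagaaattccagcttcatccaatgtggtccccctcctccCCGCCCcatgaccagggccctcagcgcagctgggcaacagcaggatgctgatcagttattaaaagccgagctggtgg
Aldh1a1, chr19:20601718-20601960, plus strand: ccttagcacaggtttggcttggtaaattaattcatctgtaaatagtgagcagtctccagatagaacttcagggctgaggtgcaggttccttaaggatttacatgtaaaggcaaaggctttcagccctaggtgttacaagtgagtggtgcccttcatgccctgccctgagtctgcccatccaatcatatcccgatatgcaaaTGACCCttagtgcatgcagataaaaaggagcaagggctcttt
The stretch of Cyp26b1 held 2 GC boxes, where 17.0% of all promoter windows of 152 bases held at least 1. It also held a TATAAA beginning 41 bases before its end, found in 7.38% of them. These shorter windows leave out the bases nearest each RefSeq start, whereas the stretch of Cyp26b1 ends at an annotated exon. In whole windows of 250 bases the shares were 32.7% and 12.4%. The stretch of Stra6 held 1 GC box, found in 32.7% of windows of 250 bases. Such a core motif was found in the stretch of Aldh1a1, 42 bases before its end, and in 23.3% of windows of 243 bases. None was found in the other 3 stretches, and 0 of the 4 held a pair of such motifs (AGTTCA and GGTTCA also allowed) as a direct repeat with a spacer of 1, 2 or 5 bases. RefSeq gives another start for both Aldh1a1 and Stra6, and the stretches before those, not printed, held 0 core motifs and 0 GC boxes. The stretch of Rbp4, also not printed, held 1 core motif, 53 bases before its end, and that of Dhrs3 held 0. Such a motif was found in 23.8% of windows of 250 bases. These counts describe letters in short windows and say nothing about binding.

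Across the whole table, the knockout of L-Pgds was plain in its gene Ptgds, whose values ran from 6560 to 8712 in wild type but from 2.94 to 15.2 in knockout, while the value over the whole of Hpgds, the gene of H-Pgds, rose and does not check its deletion. Male supporting cells were evident in all libraries, with Amh, the Sertoli cell hormone, between 36643 and 72634 and the ovarian factor Foxl2 between 12.3 and 29.9. Of 15116 genes tested, 17.3% were higher and 17.0% lower in knockout (limma, adjusted p under 0.05), 34.3% in all, and knockout libraries lay all above or all below the wild-type ones in 50.3%. The changes followed transcript length and GC content. With that trend removed, 6.07% of 14449 genes were higher and 6.64% lower. Wild-type library 1 stood apart, with a summed value of 9 liver genes of 17111 against 1127 to 3901 in the other libraries and of 12 muscle genes of 51848 against 2430 to 4514. Without it, 15.5% of genes were higher and 14.3% lower, 29.8% in all.

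Among the 8 members, the retinoic acid degrading enzyme Cyp26b1 rose, and 3 fell: Aldh1a2, a retinoic acid synthesising enzyme, Dhrs3, the retinaldehyde reductase, and Stra6, the retinol receptor. The other members (Aldh1a1, Aldh1a3, Rdh10 and Rbp4) did not pass the test. Thus 1 of 8 was higher and 3 of 8 were lower, where the shares over all genes were 17.3% and 17.0%. Every knockout library was above every wild-type library for 1 of 8 members (24.7% of all genes) and below for 3 of 8 (25.6% of all genes), which makes 4 of 8 against 50.3%. The median log2 change of the members was -0.36, against -0.03 over all genes tested. With the trend on length and GC content removed, Cyp26b1 was the 1 member past the threshold (6.07% of all genes higher), 0 were lower (6.64% of all genes), 12.7% of all genes passed in either direction, and the median was -0.21 against -0.01. The median length of the members was 2718 nt, with a GC content of 51.5%, against 3121 nt and 50.6% over all genes tested.

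**Figure D1:**
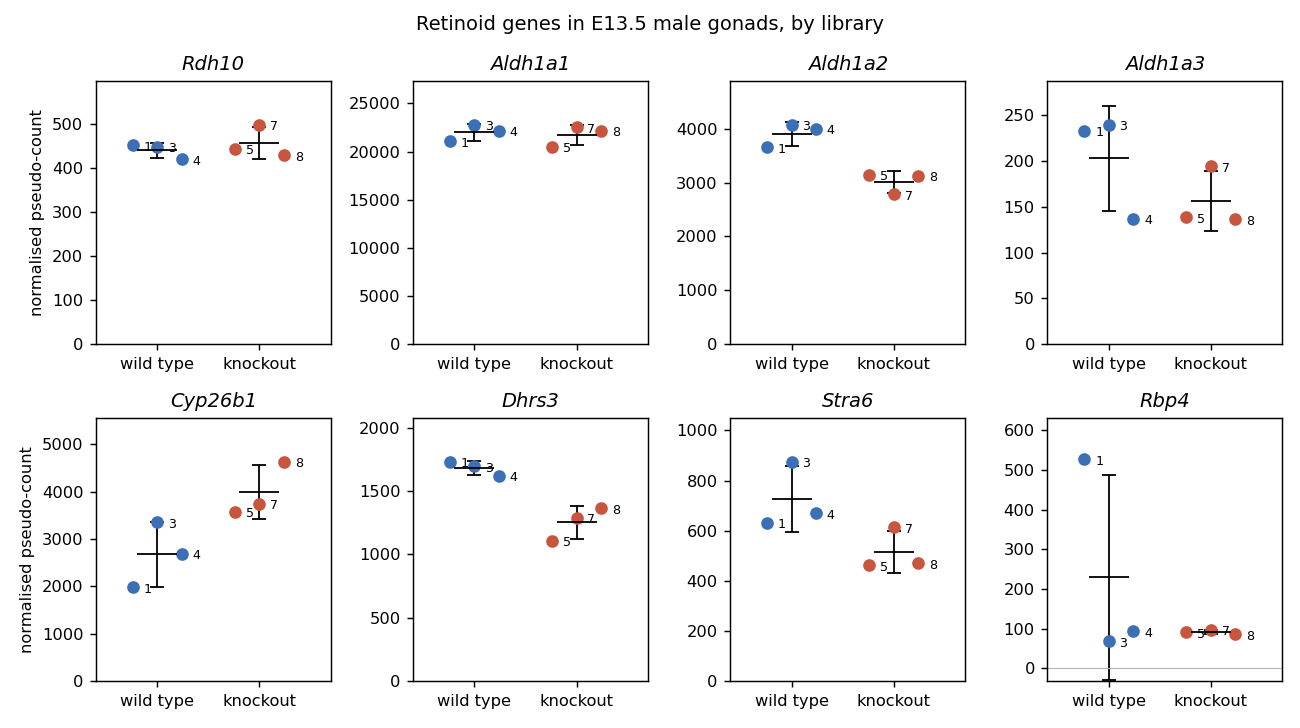
Normalised pseudo-counts (vertical axes, linear) of the 8 retinoid genes in each library, numbered as in the labels, with wild type in blue and knockout in red; horizontal bars are means and whiskers SD (n = 3). Cyp26b1 lies higher in every knockout library, Aldh1a2, Dhrs3 and Stra6 lie lower, and Rbp4 is high in wild-type library 1 only.

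Cyp26b1 (NCBI gene 232174; mm9 chromosome 6, 84521408 to 84543902) had values of 1979, 3350 and 2691 in wild-type libraries 1, 3 and 4, and of 3572, 3750 and 4637 in knockout libraries 5, 7 and 8. Every knockout library was above every wild-type library, though knockout library 5 was close to wild-type library 3. The means were 2673 ± 686 and 3986 ± 571 (SD, n = 3 each). The log2 change was 0.60 (SE 0.17, 95% interval 0.22 to 0.98, limma adjusted p = 0.0223). Wild-type library 1, which carried the liver and muscle RNAs, had the lowest value, and without it the log2 change was 0.40 (adjusted p = 0.0385). The call ended without wild-type library 4 (0.62, adjusted p = 0.0604), without knockout library 8 (0.49, 0.0789) and with a prior that did not depend on the mean (0.0793). With the length and GC trend removed, the log2 change was 0.62 (SE 0.15, adjusted p = 0.0267), so that it was no smaller than before. The transcript of Cyp26b1 is both long and GC-rich, at 4495 nt and 56.7% GC.

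Known regulators of Cyp26b1 did not pass the test. These were Nr5a1 and Sox9, which raise its transcription in the testis, Sox8, the Sertoli cell ligand Fgf9 and Foxl2. They gave 0 higher and 0 lower of 5, against 17.3% and 17.0% of all genes, with a median log2 change of -0.19. A list of 5 genes is too small to be set apart from these shares. Sox9 stood at 1442, 2163 and 2189 in wild type and at 2166, 2190 and 2350 in knockout (log2 0.24, SE 0.15, limma adjusted p = 0.236). As with Cyp26b1, wild-type library 1 had the lowest value of the 6, and without it the log2 change of Sox9 was 0.04. Nr5a1 averaged 12223 ± 532 and 10455 ± 1710 (adjusted p = 0.153). With the trend removed, Fgf9 was lower in knockout (log2 -0.54, adjusted p = 0.0153), while over all libraries without removal its log2 change was -0.19 (adjusted p = 0.333). Since the gonads were measured whole, fewer cells of a type and less RNA per cell cannot be told apart for any gene here. The 22 tested Sertoli cell genes gave 3 higher and 3 lower, and 1 of those that fell was Ptgds itself, against 17.3% and 17.0% of all genes. Without wild-type library 1 there were 1 higher and 5 lower, against 15.5% and 14.3% of all genes. With the trend removed there were 5 higher (22.7%) and 2 lower (9.09%), against 6.07% and 6.64% of all genes.

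Of the enzymes that make retinoic acid, Aldh1a1 had by far the highest level per kilobase and did not pass the test of a change. Aldh1a1 (NCBI gene 11668; chromosome 19, 20676472 to 20717952) had values of 21051, 22762 and 22140 in wild type and of 20475, 22518 and 22144 in knockout. The libraries of both genotypes were interleaved. The log2 change was -0.02 (SE 0.10, 95% interval -0.23 to 0.19, limma adjusted p = 0.895). Under quantile normalisation it was 0.24 (adjusted p = 0.0851).

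Aldh1a2 (NCBI gene 19378; chromosome 9, 71063596 to 71144050), the main retinoic acid synthesising enzyme of the early embryo, had values of 3654, 4070 and 3994 in wild type and of 3142, 2783 and 3129 in knockout. All knockout libraries were below all wild-type libraries. It fell from 3906 ± 221 to 3018 ± 204 (SD, n = 3 each; log2 -0.37, SE 0.09, 95% interval -0.57 to -0.18, limma adjusted p = 0.00967). With each library left out in turn, it was past the threshold every time. With the length and GC trend removed, the log2 change moved to -0.24 (adjusted p = 0.0691), and to -0.29 (adjusted p = 0.0314) when wild-type library 1 was also left out. Of 8 markers of the coelomic epithelium, the surface layer of the gonad, 4 fell (Krt19, Krt7, Upk3b and Upk1b) and 1 rose (Lhx9). Over all genes, 17.0% fell and 17.3% rose. The summed level of these markers was 8279 to 9822 in wild type and 6568 to 7154 in knockout. In any library, 0 of them were listed at 0. Macrophage markers were also lower: 7 of 12 fell and 0 rose, with a summed level of 3216 to 4383 in wild type and 1926 to 2332 in knockout. Of 14 markers of interstitial and mesonephric stroma, 3 rose (Nr2f2, Pdgfra and Wnt5a) and 0 fell. Their summed level was 80865 to 118319 in wild type and 86312 to 106830 in knockout. The part of any of these cell types in the fall of Aldh1a2, or of the other members that fell, was not tested.

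Aldh1a3 (NCBI gene 56847; chromosome 7, 73535779 to 73572363) was the least abundant of these enzymes. Its values were 232.9, 239.5 and 137.1 in wild type and 138.8, 194.3 and 136.3 in knockout. Wild-type library 4 lay with knockout libraries 5 and 8, and the genotypes overlapped (log2 -0.35, SE 0.24, 95% interval -0.88 to 0.18, limma adjusted p = 0.277). Per kilobase of transcript, Aldh1a1 made up 83.8% to 84.2% of the summed level of these 3 enzymes in wild type and 85.9% to 88.1% in knockout. The share of Aldh1a2 was 15.2% to 15.8% in wild type and 11.3% to 13.7% in knockout. That of Aldh1a3 was 0.356% to 0.638% over all 6 libraries.

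Of the pair of enzymes that interconvert retinol and retinaldehyde, Dhrs3 passed the test and Rdh10 did not, and the difference between them was not tested. Rdh10 (NCBI gene 98711; chromosome 1, 16095963 to 16122631), which makes retinaldehyde, had values of 451.9, 448.8 and 420.9 in wild type and of 444.9, 498.7 and 429.2 in knockout. These overlapped, with a log2 change of 0.05 (SE 0.11, 95% interval -0.20 to 0.30, limma adjusted p = 0.743). Dhrs3 (NCBI gene 20148; chromosome 4, 144482730 to 144517548), which turns retinaldehyde back into retinol and is itself induced by retinoic acid in many cells, had values of 1733, 1695 and 1620 in wild type and of 1108, 1288 and 1364 in knockout. The wild-type libraries lay within a narrow band, and every knockout library was below it. Dhrs3 fell from 1683 ± 57.3 to 1253 ± 131 (SD, n = 3 each; log2 -0.43, SE 0.10, 95% interval -0.65 to -0.21, limma adjusted p = 0.00852), and it was past the threshold with each library left out in turn. With the length and GC trend removed, the log2 change of Dhrs3 was -0.24 (SE 0.09, adjusted p = 0.116) and that of Rdh10 -0.14 (SE 0.09, adjusted p = 0.365).

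Stra6 (NCBI gene 20897; chromosome 9, 57976895 to 58001804), the cell surface receptor for RBP4, had values of 631.2, 875.6 and 668.4 in wild type and of 462.3, 613.0 and 469.9 in knockout. The genotypes did not overlap, but knockout library 7 came near wild-type library 1. Stra6 fell from 725.1 ± 132 to 515.1 ± 84.9 (SD, n = 3 each; log2 -0.49, SE 0.16, 95% interval -0.83 to -0.15, limma adjusted p = 0.0334). The call ended when library 3 or 4 of wild type, or 5 or 8 of knockout, was left out (log2 -0.54 to -0.35, adjusted p from 0.0638 to 0.122), with values scaled to equal totals (-0.39, 0.0832), with a prior that did not depend on the mean (0.08) and with the length and GC trend removed (-0.31, 0.267). Libraries 3 and 7, the highest for Stra6 in their genotypes, were also the highest for Cdh16, a cadherin of mesonephric tubules and duct, which stood at 23.6, 259.7 and 106.8 in wild type and at 29.7, 139.9 and 11.9 in knockout. The 16 mesonephric epithelium markers gave 1 higher and 2 lower, with a summed level of 5199 to 7253 in wild type and 5484 to 6499 in knockout, and 0 of them were listed at 0. Without wild-type library 1, 6 of the 16 were lower (Pax8, Cdh16, Krt8, Krt18, Cldn3 and Cldn6) and 1 was higher (Lhx1). Over all genes these shares were 14.3% and 15.5%. Cdh16 then had a log2 change of -2.13 (limma adjusted p = 0.0283), beside -0.58 (0.0146) for Stra6. Over all 6 libraries the genotypes overlapped for Cdh16, and it did not pass the test (log2 -1.21, SE 0.91, adjusted p = 0.326). Nor did it with the length and GC trend removed (-1.01, adjusted p = 0.545). With the length and GC trend removed, 2 of the 16 were higher (Lhx1 and Epcam) and 0 were lower, against 6.07% and 6.64% of all genes. Libraries 3 and 7 were also the highest of their genotypes for Pax8 and Cldn6. Krt18 was highest in wild-type library 3 but lowest in knockout library 7, at 715.6 against 747.0 and 782.8. The part of such tissue in the values of Stra6 was not tested.

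Rbp4 (NCBI gene 19662; chromosome 19, 38191110 to 38199811), the plasma carrier of retinol, which the liver secretes, had values of 526.1, 67.6 and 92.8 in wild type and of 90.8, 96.5 and 85.2 in knockout. Wild-type library 1 was far above the other 5 libraries, which lay between 67.6 and 96.5. The log2 change was -0.71 (SE 0.59, 95% interval -2.03 to 0.61, limma adjusted p = 0.376), and 0.19 (adjusted p = 0.533) without wild-type library 1. The same library held the albumin gene Alb at 5255, against 85.5 to 404.3 in the others, and Ttr, the partner of RBP4 in plasma, at 588.1 against 12.6 to 136.3. Of the 9 liver markers 0 passed the test over all libraries, against 34.3% of all genes. The standard errors were large, at 1.095 for Alb and 1.01 for Afp on the log2 scale. Without wild-type library 1, 2 (Alb and Afp) were higher in knockout and 0 were lower, against 15.5% and 14.3% of all genes. Serpina1a and Fgb were listed at 0 in wild-type library 3. The part of liver RNA in the value of Rbp4 was not tested. With the length and GC trend removed and wild-type library 1 left out, Rbp4 was higher in knockout (log2 0.69, SE 0.20, adjusted p = 0.0419).

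**Figure D2:**
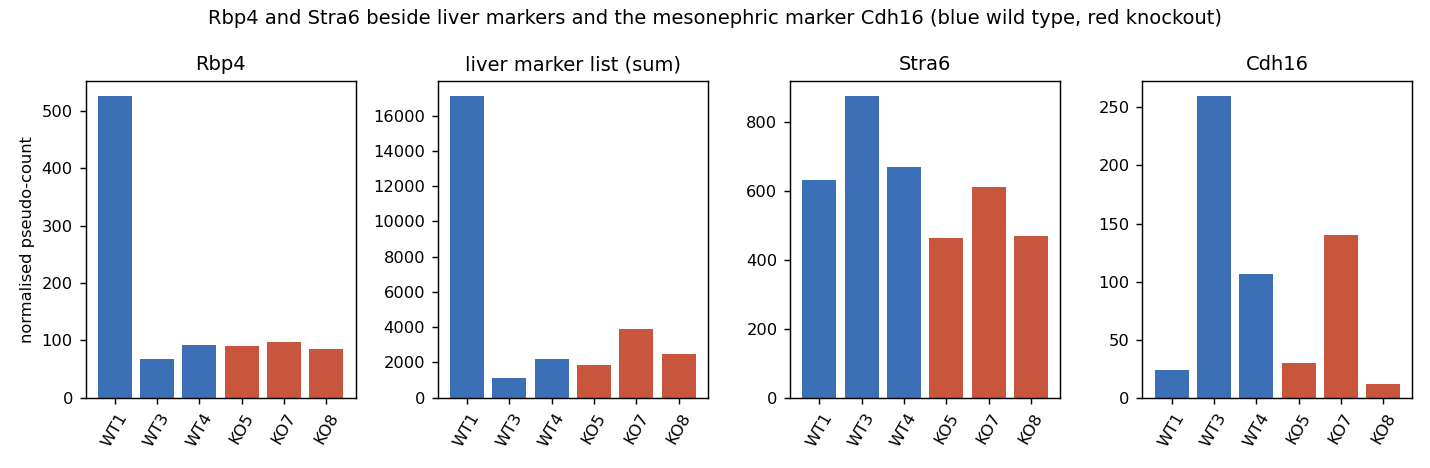
Normalised pseudo-counts (vertical axes, linear, from 0) by library for Rbp4, the sum of 9 liver markers, Stra6 and the mesonephric marker Cdh16, with wild type in blue and knockout in red. Wild-type library 1 is high for both Rbp4 and the liver markers, and libraries WT3 and KO7 are the highest of their genotypes for both Stra6 and Cdh16.

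**Figure D3:**
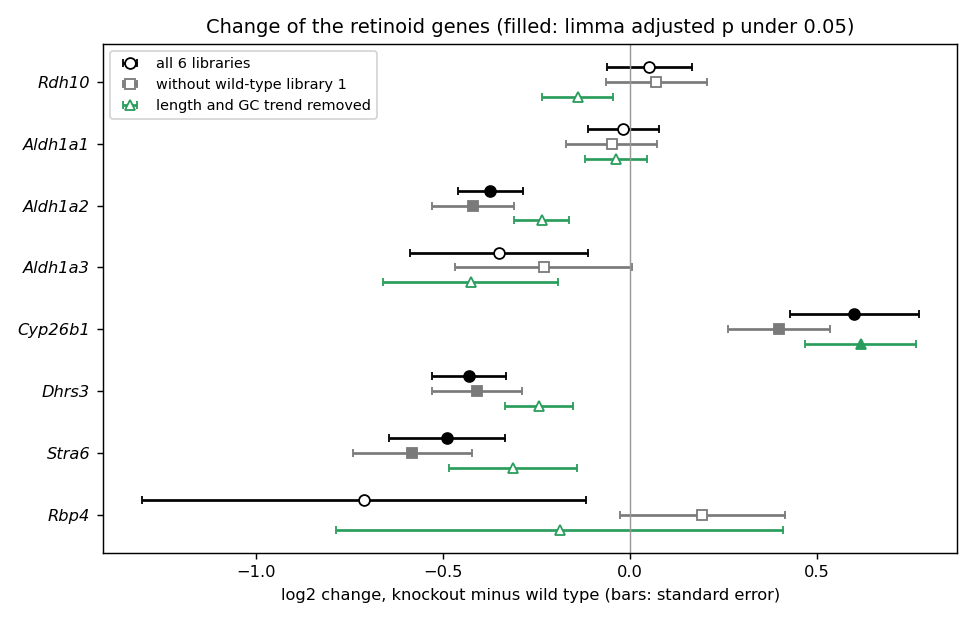
Log2 change of the 8 retinoid genes, knockout minus wild type (horizontal axis), with bars of 1 standard error, over all 6 libraries (circles), without wild-type library 1 (squares) and with the length and GC trend removed (triangles); filled symbols have a limma adjusted p under 0.05. Cyp26b1 is filled in all 3, while Aldh1a2, Dhrs3 and Stra6 are filled until the trend is removed.

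Levels of different genes were compared per kilobase of transcript. In wild type the order was Aldh1a1 (9323 ± 367 per kb, SD, n = 3), Aldh1a2 (1725 ± 97.8), Dhrs3 (720.0 ± 24.5), Cyp26b1 (594.7 ± 153), Stra6 (235.6 ± 42.8), Rbp4, Rdh10 (122.8 ± 4.76) and Aldh1a3 (59.0 ± 16.6). Neighbours in this order whose libraries overlapped were Dhrs3 with Cyp26b1, Stra6 with Rbp4 and Rbp4 with Rdh10. The place of Rbp4 rests on wild-type library 1, with 453.2 per kb against 58.2 and 79.9 in the other wild-type libraries. In knockout the order was Aldh1a1 (9208 ± 461), Aldh1a2 (1333 ± 90.0), Cyp26b1 (886.9 ± 127), Dhrs3 (536.3 ± 56.2), Stra6 (167.4 ± 27.6), Rdh10 (127.6 ± 10.2), Rbp4 (78.3 ± 4.85) and Aldh1a3 (45.4 ± 9.52), and no neighbours overlapped. By their means Cyp26b1 and Dhrs3 thus changed places, though in wild-type library 3 Cyp26b1 already lay above Dhrs3 (745.3 against 725.3 per kb). The level of Aldh1a2 per kb was 3.67, 2.41 and 2.95 times that of Cyp26b1 in wild-type libraries 1, 3 and 4 and 1.75, 1.47 and 1.34 times in knockout libraries 5, 7 and 8. For the sum of the 3 Aldh1a enzymes over Cyp26b1, the ratios were 24.1, 15.5 and 18.7 in wild type and 12.7, 12.99 and 10.5 in knockout. Both ratios were lower in every knockout library than in any wild-type library. For Aldh1a2 over Cyp26b1 this follows from the separation of each of these genes, so it is not a further result. The sum of the 3 Aldh1a enzymes overlapped between genotypes, at 10609 to 11520 per kb in wild type and 10111 to 10835 in knockout. Its ratio therefore mainly restates the values of Cyp26b1 and is not a further result either. Neither ratio was recomputed with the length and GC trend removed. The ratios compare RNA levels, not enzyme activity, and they combine members whose changes are given above.

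Among the other genes of the pathway, more fell than rose. Of 48 listed, 31 were tested, and 9 (29.0%) fell and 0 rose, against 17.0% lower and 17.3% higher over all genes; at an unadjusted p under 0.05, 1 of them was higher (Lpl) and 13 were lower. Lpl passed the adjusted threshold in 6 of 19 alternatives, and without wild-type library 4 only 4 fell. Their median log2 change was -0.22, against -0.03 over all genes, and -0.05 against -0.01 with the length and GC trend removed. Carriers inside cells were among those that fell. Crabp2, which carries retinoic acid to its receptors, had values of 797.7, 541.0 and 679.7 in wild type against 346.9, 341.5 and 331.3 in knockout, with no overlap (log2 -0.97, SE 0.14, limma adjusted p = 0.00187). Fabp5, a fatty acid carrier that also binds retinoic acid, fell from 1483 ± 62.0 to 984.3 ± 27.6 (SD, n = 3 each; adjusted p = 0.00181). Crabp1 fell from 498.6 ± 40.3 to 322.9 ± 91.4 (adjusted p = 0.0195), and its call ended without wild-type library 3 or 4 or knockout library 5 or 8 (0.0518 to 0.0716).

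Among the enzymes, Adh1, an alcohol dehydrogenase that oxidises retinol, fell from 5253 ± 471 to 3751 ± 729 (limma adjusted p = 0.0155), Dhrs4, a reductase of retinaldehyde, from 1904 ± 64.3 to 1414 ± 176 (0.0102), and the retinol saturase Retsat from 607.2 ± 54.0 to 446.5 ± 48.5 (0.0196). Of the receptors, Rxrb fell from 3471 ± 201 to 2556 ± 186 (0.00495), Rarg from 603.2 ± 25.2 to 485.2 ± 15.4 (0.037) and Rxrg from 90.4 ± 55.3 to 36.9 ± 11.4 (0.0411). Wild-type library 1 held Rxrg at 154.2 against 56.5 and 60.5 in the other wild-type libraries, and its log2 change moved from -1.15 to -0.69 (adjusted p = 0.0914) without that library; its call also ended without wild-type library 4 or knockout library 7 or 8 (0.0541 to 0.115). Rarg lost its call without any one of the 6 libraries (adjusted p from 0.0553 to 0.121). Without wild-type library 4, Adh1 (0.0669) and Retsat (0.0884) were not past the threshold, nor was Adh1 without knockout library 5 (0.0677) or Retsat without knockout library 7 (0.052). Rara averaged 3042 ± 95.4 and 2619 ± 180 (adjusted p = 0.0693), Rxra 2435 ± 159 and 2439 ± 151 (0.987), Adh5 8856 ± 527 and 7741 ± 535 (0.124) and the lipase Lpl 2629 ± 580 and 3427 ± 110 (0.0522). With the length and GC trend removed, 3 of 31 (9.68%) were past the threshold, all lower, against 6.64% of all genes: Crabp2 (log2 -0.55, adjusted p = 0.0106), Retsat (-0.46, 0.0294) and Fabp5 (-0.34, 0.0361). For Crabp1 and Dhrs4 the log2 change then moved to -0.01 each (adjusted p = 0.976 and 0.943).

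**Figure D4:**
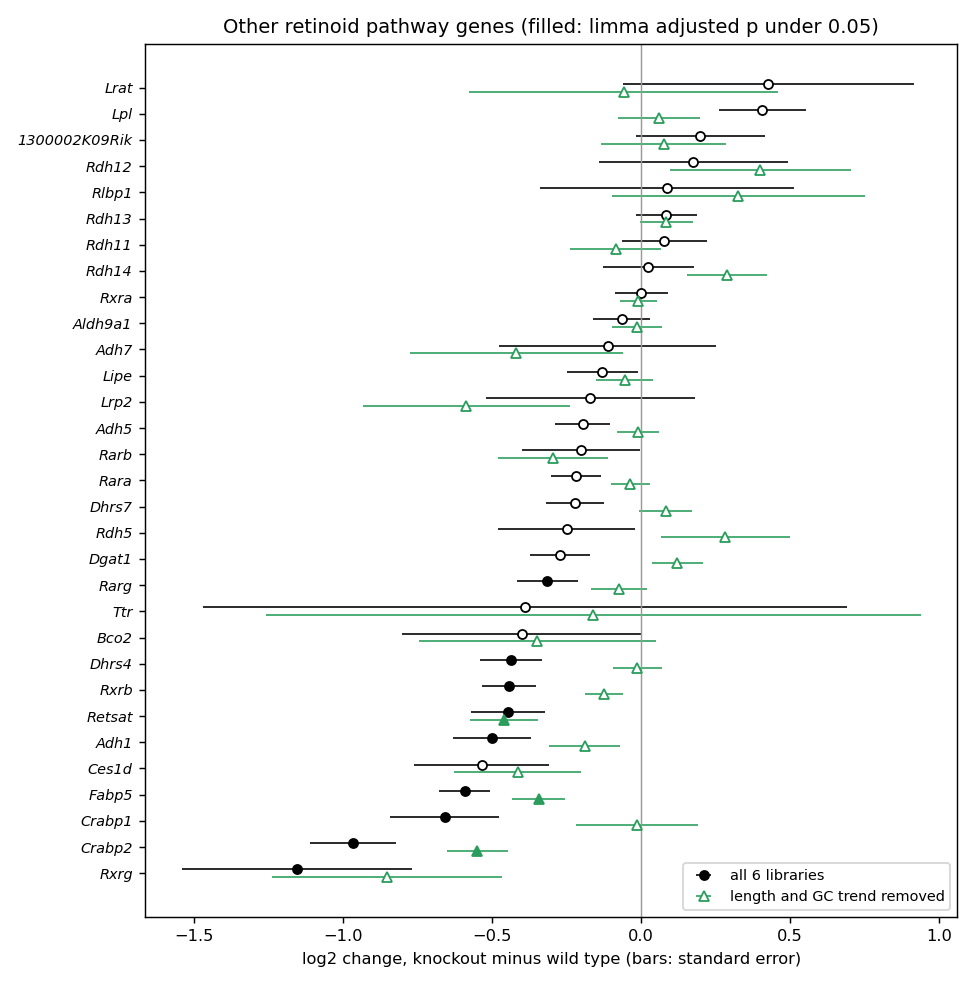
Log2 change, knockout minus wild type (horizontal axis), with bars of 1 standard error, of the 31 tested genes of the retinoid pathway outside the 8 members, over all 6 libraries (circles) and with the length and GC trend removed (triangles); filled symbols have a limma adjusted p under 0.05. The 9 filled circles and the 3 filled triangles all lie below 0.

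Genes known to respond to retinoic acid went both ways. Of 10 listed, 7 were tested; 3 (42.9%) fell and 1 (14.3%) rose, against 17.0% and 17.3% of all genes. Crabp2 and Rarb are counted in both lists. Besides Crabp2, those that fell were Tgm2, a transglutaminase, from 6040 ± 428 to 4526 ± 531 (SD, n = 3 each; limma adjusted p = 0.0112), and Rec8, a meiotic cohesin, from 333.3 ± 72.3 to 210.3 ± 30.6 (0.0198). Without knockout library 5 both lost their calls (0.0561 and 0.0769), and Rec8 also without knockout library 7 (0.059). The gene that rose was Nrip1, a corepressor of nuclear receptors, with values of 15.8, 51.9 and 36.6 in wild type and of 140.8, 130.3 and 154.5 in knockout. Its libraries did not overlap, and its log2 change was 2.15 (SE 0.36, adjusted p = 0.00264) and 1.61 (adjusted p = 0.0212) with the trend removed. Rarb, a receptor that retinoic acid induces directly, had values of 160.5, 201.1 and 147.2 in wild type and of 134.7, 185.5 and 125.0 in knockout (log2 -0.20, adjusted p = 0.459). Stra8, the germ cell gene that retinoic acid induces at the start of meiosis, was below the filter, at 44.2, 3.47 and 7.21 in wild type and at 6.14, 11.3 and 7.72 in knockout. With the trend removed, Crabp2 (lower) and Nrip1 (higher) were past the threshold, where 6.64% and 6.07% of all genes were, Rec8 was not (log2 -0.31, adjusted p = 0.276), and Tgm2 lay close to it (-0.30, 0.0518).

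Over the 6 libraries, the genes whose log2 values followed those of Cyp26b1 most closely, among 11780 genes with a mean of at least 100, were 2810046L04Rik, Pla2r1 and Gpld1, with Pearson's r of 0.998, 0.998 and 0.997. All were lowest in wild-type library 1 and highest in knockout library 8. Their log2 changes were smaller than that of Cyp26b1, at 0.35, 0.37 and 0.22 (limma adjusted p = 0.0553, 0.115 and 0.213). The 6 points share their normalisation and hold only 2 genotypes, so these coefficients describe an order of libraries.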

How the data were processed

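RNA sequencing libraries were made with an unstranded TruSeq kit, per the labels' protocols. CASAVA 1.8.2, edgeR 2.6.2 and mm9 are named, per the submitters' processing notes, without their roles, and no annotation is named there. The deposited signal is an upper-quartile normalised pseudo-count per gene. All 6 value columns were matched to libraries by name, and 0 were left unmatched. Whole reads could not be recovered: between 3 and 60, 92.9% of values of knockout library 5 lay within 0.05 of a whole multiple of 1 step, against 11.8% to 22.6% in the other libraries. The depth is therefore unknown, and no counting interval is given.

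The main test was limma (3.58.1, R 4.3.3), two-sided with a mean-dependent prior, on log2(value + 1). It covered the 15116 of 16862 genes that reached 10 in 3 or more libraries, and p-values were adjusted by Benjamini-Hochberg across the whole of them. Fold changes are on this scale and understate the change of low genes. In a simulation of the knockout against wild-type comparison with 15116 genes, the test found 68 of 100 genes with a 2-fold and 30 of 100 with a 1.5-fold change. Of its 105 calls, 7 were false. The simulation changed no genes but these 2-fold and 1.5-fold ones, drew noise independently for each gene and held no shared length and GC trend. In the data 34.3% of genes were called, so these figures may not hold for them. The longest protein-coding transcript of a gene in GENCODE vM21 gave its length and GC content, matched by NCBI gene number for 14449 genes (95.6%) and used without coordinates. Trend removal subtracted, in each library, natural splines (4 degrees of freedom each) fitted to GC content and to log2 length. The rule for named genes took all members, each gene past the threshold in the lists of other retinoid genes and of retinoic acid responsive genes, up to 4 of the rest of each list by mean level, 5 regulators of Cyp26b1, and the 3 genes most like it. One gene of these lists is not reported here. Members and lists were chosen with earlier results of these data known, and so was the alternative of trend removal. Plots were made with Python 3.11.15 and matplotlib 3.10.9.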

Additional observations from a re-analysis of the deposited data

How the results depend on the processing

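The change of each gene was recomputed under 19 alternatives. Cyp26b1 was higher in all of them and past the threshold in 16, Aldh1a2 was lower in all and past it in 18, Dhrs3 in 17 and Stra6 in 11. Crabp2, Fabp5 and Nrip1 were past it in all 19. With the length and GC trend removed, 0 members were lower, 3 other pathway genes were lower, and 877 genes in all were higher and 959 lower; Rdh10 moved to -0.14. With wild-type library 1 also left out, 2 members were higher (Cyp26b1 and Rbp4, the latter by 0.69) and 1 lower (Aldh1a2), 3 other pathway genes were lower, 842 genes in all were higher and 881 lower, and Rdh10 stood at -0.11. With equal totals, 3511 genes were higher and 1690 lower, and Aldh1a1 was at 0.084. Quantile normalisation gave 0.241 for Aldh1a1 and -0.009 for Rdh10. The number of other pathway genes higher was 1 with the filter at 50, equal totals, quantile normalisation and library weights. Without a mean-dependent prior, 0 members were higher.

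Leaving out each library in turn gave 0 to 1 members higher and 2 to 3 lower, 0 to 1 other pathway genes higher and 4 to 9 lower, and 1635 to 2495 genes in all higher and 1397 to 2546 lower, the lowest without wild-type library 4. The log2 change ranged from -0.049 to 0.023 for Aldh1a1, from -0.011 to 0.097 for Rdh10 and from -1.28 to 0.19 for Rbp4. Except where stated, the cause of these shifts was not tested. No paired analysis was possible because the wild-type and knockout libraries share no replicate number. The number of libraries and the unknown depth limit the precision, and with 3 against 3 an exact permutation test of 1 gene cannot go below 0.1.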
